A study of Homo sapiens with 2 samples.

Results

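The 9 genes described here encode enzymes that make NADPH or carry sugars through the pentose phosphate pathway, with a regulator that directs glucose towards it. They were chosen by name, with earlier results of these data known, and each matched 1 of the 60624 named genes in the deposited expression table. By role they are PGLS and PGD of the oxidative branch, RPE, RPIA, TKT and TALDO1 of the non-oxidative branch, ME1 and IDH1, which form NADPH outside the pathway, and the regulator TIGAR. The study sequenced RNA of MDA-MB-231, an established human triple-negative breast cancer cell line, in 1 library per group. The cells of the CEL library were kept for 24 h with CEL at 1 µM, and the cells of the Control library were kept for 24 h, with no agent named in the labels. CEL is the labels' own abbreviation. The labels name a single line and no further allele or agent in either group. No difference could be checked against replicates, because each group is 1 library. Where a gene is called higher or lower, CEL is the library meant and Control is the one it is set against.

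NADPH is the electron donor that cells spend on lipid synthesis and on reducing glutathione and thioredoxin. The oxidative branch of the pentose phosphate pathway makes NADPH while it turns glucose 6-phosphate into a pentose phosphate, and the non-oxidative branch moves carbon between pentose phosphates and the sugar phosphates of glycolysis. Genes for several of these enzymes, PGD, TKT, TALDO1 and ME1 among them, are known targets of NRF2, a transcription factor of the oxidative stress response. The libraries held 17199398 counted reads in CEL and 14821148 in Control. Genes of the mitochondrial genome took 4.06% of the reads in CEL and 7.14% in Control, and the part of this difference in the results was not tested. Among markers of the line, CD44, AXL, VIM and MMP14 stood between 345 and 1024 FPKM in both libraries and SPARC was below 1 FPKM. The oestrogen and progesterone receptor genes ESR1 and PGR had 0 reads in both, and FOXA1 had 1 read in CEL and 0 in Control. ERBB2 had 48.8 FPKM in CEL and 71.7 FPKM in Control, and GATA3 8.60 FPKM in CEL and 10.8 FPKM in Control. The 8 macrophage markers summed to 3.70 FPKM in CEL and 4.87 FPKM in Control, with CD163, FCGR3A and MARCO at 0 in both. Most of that sum came from CSF1R, at 1.81 FPKM in CEL and 2.78 FPKM in Control, and CD14, at 1.36 FPKM in CEL and 1.92 FPKM in Control. FPKM are shares of a library scaled by gene length, so a lower level in fewer cells and less RNA per cell cannot be told apart.

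In the CEL library the transcripts of transaldolase, transketolase and malic enzyme 1 stood at 1.85 to 2.14 times their Control levels, those of the pentose isomerases and of phosphogluconate dehydrogenase were higher by less, and IDH1 was slightly lower. Genes that reached 1 FPKM in either library were taken as measured, which held for 8 of the 9 genes and not for TIGAR. Of the 8, 3 were at least 1.5-fold higher on the scale log2((CEL FPKM + 1)/(Control FPKM + 1)) and 0 were at least 1.5-fold lower. Across all 13745 measured genes, 8.97% were at least 1.5-fold higher and 10.2% at least 1.5-fold lower. At the 2-fold mark 1 of the 8 was higher, TALDO1, and 0 were lower, against 2.7% higher and 3.24% lower of all measured genes. The median log2 fold of the 8 genes was 0.56, and that of all measured genes was 0.00 with quartiles of -0.29 and 0.28. Each ratio below divides the CEL FPKM by the Control FPKM and carries a 95% interval, exact and binomial, that was computed from the reads. The interval covers counting error only and compares these libraries, not the conditions. It lay above 1 for 6 of the 8 genes and below 1 for 1, against 29.9% and 29.1% of all measured genes.

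**Figure D1:**
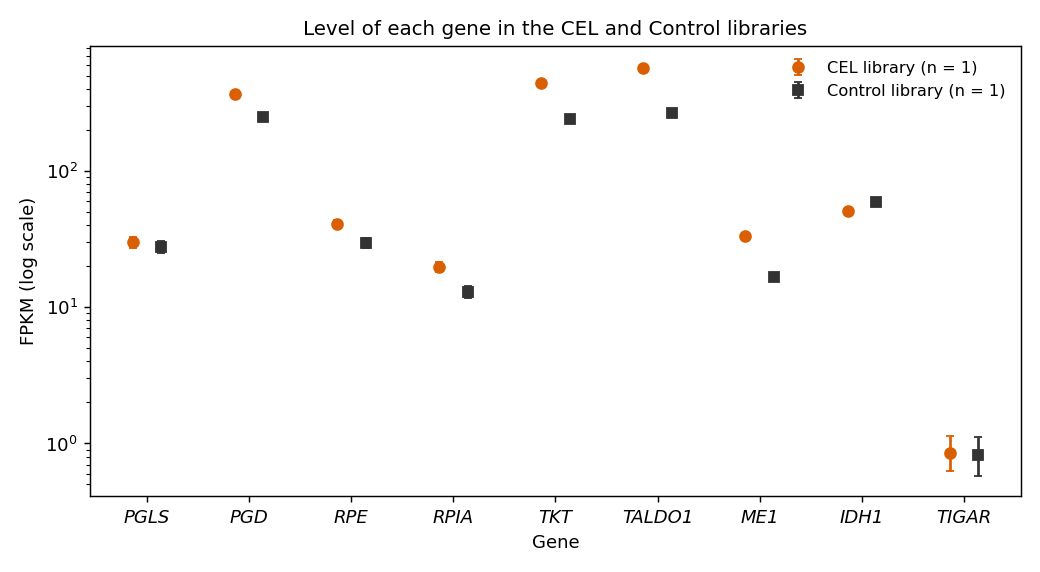
Level of each gene in FPKM (log axis) in the CEL library (circles) and the Control library (squares), 1 library per group, with exact Poisson 95% intervals of the reads as bars. TALDO1, TKT and PGD lie at 241 FPKM or more in both libraries, TIGAR lies below 1 FPKM in both, and IDH1 is the gene whose CEL value lies below its Control value.

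The oxidative branch differed between its enzymes. PGLS (ENSG00000130313; GRCh38 chromosome 19, 17511636 to 17521288), which hydrolyses the lactone formed in the first step, stood at 30.0 FPKM (486 reads) in CEL and 27.5 FPKM (384 reads) in Control. Its ratio was 1.09 (interval 0.952 to 1.25), so no difference was detectable at this depth. PGD (ENSG00000142657; chromosome 1, 10398592 to 10420511) oxidises 6-phosphogluconate and makes NADPH in the same step. PGD stood at 365 FPKM (4962 reads) in CEL and 249 FPKM (2918 reads) in Control, a ratio of 1.47 (1.40 to 1.53) and a log2 fold of 0.55. It therefore lay just short of the 1.5-fold mark, at rank 1388 of 13745 from the highest fold. The reads of PGD relative to those of PGLS, a quantity that no single scaling factor per library can move, although a trend with gene length can, were 1.34 times as high in CEL as in Control (1.16 to 1.55).

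Among other genes of this branch, fixed as a list of 3, 2 were measured, 0 were higher and 1 was at least 1.5-fold lower. Across all measured genes 8.97% were at least 1.5-fold higher and 10.2% at least 1.5-fold lower. H6PD, which carries out the first steps of the branch inside the endoplasmic reticulum, was the lower gene, at 20.2 FPKM in CEL and 32.5 FPKM in Control (ratio 0.622, interval 0.587 to 0.658). Its log2 fold of -0.66 fell short of the mark with a pseudocount of 5 FPKM (-0.57) and with the length trend described below removed (-0.50), where IDNK passed it instead (-0.66). IDNK, a gluconate kinase, stood at 2.91 FPKM in CEL and 4.33 FPKM in Control, and its interval of 0.447 to 1.01 included 1. The endoplasmic reticulum enzyme H6PD and the cytosolic enzyme PGD thus lay on opposite sides of a ratio of 1.

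In the non-oxidative branch the isomerases and the carbon-transfer enzymes were all above a ratio of 1, and the carbon-transfer enzymes were furthest above it. RPE (ENSG00000197713; chromosome 2, 210002565 to 210022260), which epimerises ribulose 5-phosphate to xylulose 5-phosphate, stood at 41.1 FPKM (875 reads) in CEL and 29.8 FPKM (546 reads) in Control, a ratio of 1.38 (1.24 to 1.54). RPIA (ENSG00000153574; chromosome 2, 88691673 to 88750929), which isomerises the same sugar to ribose 5-phosphate, stood at 19.8 FPKM (617 reads) in CEL and 13.0 FPKM (348 reads) in Control, a ratio of 1.53 (1.34 to 1.75). With the pseudocount, the log2 fold of RPIA was 0.58 and fell just short of the 1.5-fold mark. RPE and RPIA could not be told apart in how they differed between libraries, since the reads of RPIA relative to RPE were 1.11 times as high in CEL as in Control (0.931 to 1.32).

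TKT (ENSG00000163931; chromosome 3, 53224712 to 53256052) encodes transketolase, a thiamine-dependent enzyme that moves units of 2 carbons. It stood at 446 FPKM (15543 reads) in CEL and 241 FPKM (7249 reads) in Control, a ratio of 1.85 (1.80 to 1.90) and rank 491 of 13745 by fold. TALDO1 (ENSG00000177156; chromosome 11, 747415 to 765012) encodes transaldolase, which moves units of 3 carbons. It stood at 572 FPKM (7783 reads) in CEL and 267 FPKM (3135 reads) in Control, a ratio of 2.14 (2.05 to 2.23), rank 266 by fold and the highest ratio of the 9 genes. Summed, TKT and TALDO1 had 23326 reads in CEL and 10384 in Control, a ratio of 1.94 (1.89 to 1.98) on the same library totals, against 1.44 (1.32 to 1.56) for RPE and RPIA. TALDO1 exceeded TKT in this respect by a small factor, 1.16 (1.10 to 1.22) in the ratio of their reads. With the length trend removed this order turned, to a log2 fold of 0.78 for TALDO1 and 0.90 for TKT. TALDO1 accounted for 36.7% of the summed FPKM of the 9 genes in CEL and 29.6% in Control, and TKT for 28.6% in CEL and 26.7% in Control.

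**Figure D2:**
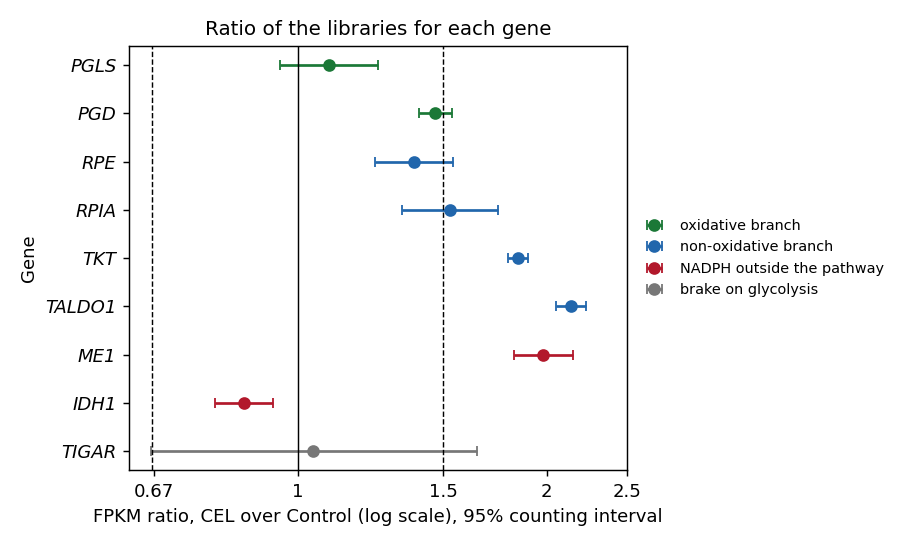
Ratio of FPKM, CEL over Control (log axis), for each of the 9 genes with its 95% counting interval, coloured by role; the solid line marks 1 and the dashed lines a ratio of 1.5 in either direction. The intervals of TKT, TALDO1 and ME1 lie wholly above 1.5, the interval of IDH1 lies below 1, and those of PGLS and TIGAR include 1.

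Near copies took few reads. The 8 pseudogenes in the table that carry the name of a member (PGDP1, RPIAP1 and 6 of RPE) had 0 reads in both libraries, and so did TKTL1 and TKTL2, which encode transketolase-like proteins. RPEL1, an intronless relative of RPE, had 2 reads in CEL and 0 in Control, where 0 allows up to 3 reads. These counts depend on how reads that align to several loci were treated, which is not given in the sources used here. Of the exonic bases of RPE in GENCODE 29, 23.8% are shared with KANSL1L on the other strand, which stood at 5.92 FPKM in CEL and 7.78 FPKM in Control, so part of the RPE value is uncertain. For PGLS the shared part was 9.17% and for IDH1 1.99%, and PGD, RPIA, TKT, TALDO1 and ME1 shared no exonic base.

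Of the 2 enzymes that make NADPH outside the pathway, ME1 was past the 1.5-fold mark and IDH1 lay slightly below a ratio of 1. ME1 (ENSG00000065833; chromosome 6, 83210402 to 83431051), the cytosolic malic enzyme that turns malate into pyruvate, stood at 33.2 FPKM (1906 reads) in CEL and 16.8 FPKM (829 reads) in Control. Its ratio was 1.98 (1.83 to 2.15), at rank 418 of 13745 by fold. IDH1 (ENSG00000138413; chromosome 2, 208236227 to 208266074), the cytosolic and peroxisomal isocitrate dehydrogenase, stood at 50.7 FPKM (1215 reads) in CEL and 58.9 FPKM (1216 reads) in Control. Its ratio was 0.861 (0.795 to 0.933), a log2 fold of -0.21 that is far from the 1.5-fold mark. That fold lies within the quartiles of all measured genes, -0.29 and 0.28. The reads of ME1 relative to those of IDH1 were 2.30 times as high in CEL as in Control (2.05 to 2.58). In FPKM, ME1 stood at 0.655 of the level of IDH1 in CEL and at 0.285 in Control.

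TIGAR (ENSG00000078237; chromosome 12, 4307763 to 4360028) encodes a p53-inducible phosphatase that lowers fructose 2,6-bisphosphate and so slows glycolysis in favour of the pentose phosphate pathway. It stood at 0.854 FPKM (46 reads) in CEL and 0.819 FPKM (38 reads) in Control, a ratio of 1.04 (0.664 to 1.65). The interval is wide enough to hold a 1.5-fold difference, so these reads do not show that the level was alike. In GENCODE 29, 45.6% of the exonic bases of TIGAR are shared with AC008012.1 on the same strand, which had 0 reads in both libraries, or with AC006122.1 on the other strand, which stood at 0.192 FPKM in CEL and 0 in Control. The part of this overlap in the low level of TIGAR was not tested. MDA-MB-231 is a p53-mutant line, and the part of that in the levels of TIGAR and other p53-controlled genes was not tested either. Of 12 measured genes other than TIGAR that p53 is known to control, 2 were higher and 2 lower, against 8.97% and 10.2% of all measured genes. The median log2 fold of the 12 was -0.03. With a pseudocount of 5 FPKM 1 was higher and 0 were lower, with a filter at 5 FPKM 1 was lower, and with the length trend removed 1 was higher. TP53I3 stood at 11.7 FPKM in CEL and 6.36 FPKM in Control, BAX at 154 FPKM in CEL and 97.3 FPKM in Control, FDXR at 7.13 FPKM in CEL and 12.3 FPKM in Control, and BBC3 at 2.24 FPKM in CEL and 3.91 FPKM in Control.

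All 36 pairs among the 9 genes were compared by the ratio of their reads. The counting interval excluded 1 in 26 pairs. Of the other 10, 5 involved TIGAR with its few reads, and the other 5 lay among TALDO1, ME1 and TKT or among RPIA, PGD and RPE. TALDO1 against ME1 gave 1.08 (0.984 to 1.18) and ME1 against TKT gave 1.07 (0.983 to 1.17). RPIA against PGD gave 1.04 (0.905 to 1.20) and PGD against RPE gave 1.06 (0.943 to 1.19), and RPIA against RPE is given above. These pairs are taken on the deposited scale, describe 1 library against 1 library and carry the trend with gene length, without which RPIA, RPE and PGD lay at log2 folds of 0.58, 0.36 and 0.24.

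To show where the letters of the NRF2 response element lie, the 250 bases before the RefSeq transcription start (GRCh38.p14) are printed for the 3 genes past the 1.5-fold mark. The same stretch is printed for IDH1, whose ratio was below 1 but short of that mark. Capitals mark the letters TGACNNNGC, the core of the antioxidant response element that NRF2 binds. ME1 is at chr6:83431052-83431301, minus strand, TKT at chr3:53256023-53256272, minus strand, TALDO1 at chr11:747214-747463, plus strand, and IDH1 at chr2:208255072-208255321, minus strand, the window of its 2 that holds a match.
ME1: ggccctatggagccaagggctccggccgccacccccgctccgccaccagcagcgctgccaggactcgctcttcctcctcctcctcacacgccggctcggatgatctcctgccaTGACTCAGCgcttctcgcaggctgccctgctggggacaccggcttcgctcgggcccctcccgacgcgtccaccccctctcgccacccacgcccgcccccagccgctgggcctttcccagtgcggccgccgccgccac
TKT: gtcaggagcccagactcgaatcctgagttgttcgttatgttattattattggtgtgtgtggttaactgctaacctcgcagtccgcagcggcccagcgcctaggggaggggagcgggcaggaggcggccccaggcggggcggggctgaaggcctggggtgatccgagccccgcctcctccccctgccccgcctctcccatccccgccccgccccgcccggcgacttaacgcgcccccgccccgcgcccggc
TALDO1: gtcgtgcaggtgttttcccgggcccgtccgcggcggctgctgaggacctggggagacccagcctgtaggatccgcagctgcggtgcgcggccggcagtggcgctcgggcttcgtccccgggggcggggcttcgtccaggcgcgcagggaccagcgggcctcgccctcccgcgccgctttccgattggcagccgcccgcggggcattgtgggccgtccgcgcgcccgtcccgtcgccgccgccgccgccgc
IDH1: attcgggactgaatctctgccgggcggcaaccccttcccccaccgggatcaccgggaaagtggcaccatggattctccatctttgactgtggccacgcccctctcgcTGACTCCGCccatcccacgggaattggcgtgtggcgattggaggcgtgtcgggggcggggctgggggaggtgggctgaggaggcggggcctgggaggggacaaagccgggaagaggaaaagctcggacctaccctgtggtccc

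The table of RefSeq promoters held all 9 genes in 10 windows, IDH1 having 2. The letters TGACNNNGC, searched on both strands, were in 4 of the 10 windows, those of ME1, IDH1, PGD and RPE, and in 10.9% of all 35116 windows of the same length. In ME1 the match TGACTCAGC begins 137 bases before the start, and it overlaps a match to TGANTCA, the AP-1 element, which 6.57% of all windows hold. In IDH1 the match TGACTCCGC begins 143 bases before the start. The windows of TKT and TALDO1, which were higher in CEL, held no match. Of the 2 windows of IDH1, whose ratio was below 1 but short of the 1.5-fold mark, 1 held a match. Among the NRF2-controlled genes outside the pathway described below, 1 of 11 windows held the letters. That list has 17 genes, so the 11 windows do not cover all of it. A window of this length therefore cannot show whether a gene is an NRF2 target. The GC box GGGCGG was in 9 of the 10 windows, PGLS being without it, and in 42.6% of all windows, and the E-box CACGTG was in 0 of the 10 and in 6.34% of all windows. These matches are letters in a window and not sites shown to be bound.

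Of 12 other genes that form NADPH or make its precursor 11 were measured, with a median log2 fold of 0.18. Of these, 0 were at least 1.5-fold higher or lower, against 8.97% higher and 10.2% lower of all measured genes. ALDH1L1, which oxidises formyl-folate, came nearest to the mark, at 0.450 FPKM (16 reads) in CEL and 1.14 FPKM (35 reads) in Control. Its ratio was 0.394 (0.204 to 0.731), and its log2 fold of -0.56 passed the mark with a pseudocount of 0.1 FPKM (-1.18), in TPM (-0.71) and with median scaling (-0.61). Among the mitochondrial enzymes, the malic enzymes ME2 and ME3 stood at 27.6 and 35.8 FPKM in CEL and at 24.2 and 30.3 FPKM in Control. IDH2, the mitochondrial relative of IDH1, stood at 32.1 FPKM in CEL and 37.5 FPKM in Control (ratio 0.856, interval 0.782 to 0.938), close to the ratio of IDH1. NNT, the transhydrogenase of the inner membrane, stood at 45.1 FPKM in CEL and 62.3 FPKM in Control (0.724, 0.687 to 0.762). Of the folate enzymes, MTHFD1 stood at 80.0 FPKM in CEL and 65.4 FPKM in Control, MTHFD2 at 22.3 FPKM in CEL and 16.7 FPKM in Control, and MTHFD2L at 8.52 FPKM in CEL and 6.37 FPKM in Control. GLUD1, glutamate dehydrogenase, stood at 188 FPKM in CEL and 140 FPKM in Control. The kinases that make NADP from NAD, NADK of the cytosol and NADK2 of mitochondria, stood at 108 and 39.2 FPKM in CEL and at 114 and 45.1 FPKM in Control. ME1 was thus the malic enzyme with the highest ratio of the 3, at 1.98 against 1.18 for ME3 and 1.14 for ME2.

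Enzymes around ME1 and IDH1 in the citrate cycle had a median log2 fold of -0.12. Of 15 measured genes 1 was higher and 0 were lower, against 8.97% and 10.2% of all measured genes. The higher gene was SLC25A10, the mitochondrial dicarboxylate carrier, at 3.98 FPKM (84 reads) in CEL and 1.81 FPKM (33 reads) in Control. That call was lost with a pseudocount of 5 FPKM, at a log2 fold of 0.40, and with a filter at 5 FPKM, which the gene did not reach. With the length trend removed IDH3G, a subunit of the NAD-dependent isocitrate dehydrogenase, was lower (-0.62). FH, fumarase, stood at 128 FPKM in CEL and 90.4 FPKM in Control, IDH3G at 17.8 FPKM in CEL and 25.1 FPKM in Control, and the citrate carrier SLC25A1 at 64.8 FPKM in CEL and 82.0 FPKM in Control.

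Genes that use the products of the pathway were also examined. Of 18 genes of nucleotide synthesis and of its activated ribose, phosphoribosyl pyrophosphate, all were measured, with a median log2 fold of 0.29. Of these, 3 were at least 1.5-fold higher and 0 lower, against 8.97% and 10.2% of all measured genes. GART, which carries out several steps of purine synthesis, stood at 187 FPKM in CEL and 108 FPKM in Control. PPAT, the first committed step of purine synthesis, stood at 39.5 FPKM in CEL and 24.2 FPKM in Control, and IMPDH2, of guanine nucleotide synthesis, at 522 FPKM in CEL and 325 FPKM in Control. IMPDH2 fell short of the mark with the length trend removed (log2 fold 0.43). ATIC lay just under the mark at 151 FPKM in CEL and 101 FPKM in Control. Of 10 other genes of ribose and pentose handling 5 were measured, with RBKS, a ribokinase, higher at 5.76 FPKM in CEL and 3.34 FPKM in Control. The log2 fold of RBKS was 0.64, and it fell short of the mark with a pseudocount of 5 FPKM (0.37) and with the length trend removed (0.53), where the median of the 5 genes was 0.21 in place of 0.41. PGM2 stood at 98.9 FPKM in CEL and 74.0 FPKM in Control, DERA at 40.1 FPKM in CEL and 29.9 FPKM in Control, and PGM1 at 62.1 FPKM in CEL and 67.9 FPKM in Control.

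Enzymes that spend NADPH had a median log2 fold of 0.40. Of 18 measured genes 5 were higher and 1 lower, against 8.97% and 10.2% of all measured genes. NQO1, a quinone reductase, stood at 364 FPKM in CEL and 106 FPKM in Control, and TXNRD1, which reduces thioredoxin, at 1497 FPKM in CEL and 515 FPKM in Control. BLVRB, biliverdin reductase B, stood at 87.7 FPKM in CEL and 43.5 FPKM in Control, and CBR1, a carbonyl reductase, at 60.9 FPKM in CEL and 33.9 FPKM in Control. The fifth higher gene, KDSR of sphingolipid synthesis, and the lower gene, FDXR, which is also on the list of p53-controlled genes, were named after their values were seen. FDXR was no longer lower with a pseudocount of 5 FPKM (log2 fold -0.51). KDSR stood at 89.5 FPKM in CEL and 51.8 FPKM in Control. NQO1 and TXNRD1 are also established NRF2 targets. A list of NRF2-controlled genes outside the pathway had 14 of 16 measured genes higher and 0 lower, against 8.97% and 10.2% of all measured genes. The median of the list was 1.45. AKR1B10, AKR1C1 and AKR1C2 of this list had 6, 33 and 1 reads in Control. They were below 1 FPKM in that library and measured only through CEL, so they could not count as lower. With a filter at 5 FPKM 12 genes of the list were higher. With a pseudocount of 5 FPKM 13 were higher, at a median of 1.20, and with the length trend removed 13 were higher. This list, like the others, was chosen with earlier results of these data known, so its count and median are not independent evidence. Its median was above the 0.56 of the 8 pathway and NADPH genes. Its 4 largest folds belonged to AKR1B10, FTH1, SLC7A11 and FTL, at 12.2, 272, 53.2 and 5921 FPKM in CEL and at 0.428, 34.3, 6.59 and 1518 FPKM in Control. AKR1B10, FTH1 and FTL have near copies in the genome, so their levels are uncertain.

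**Figure D3:**
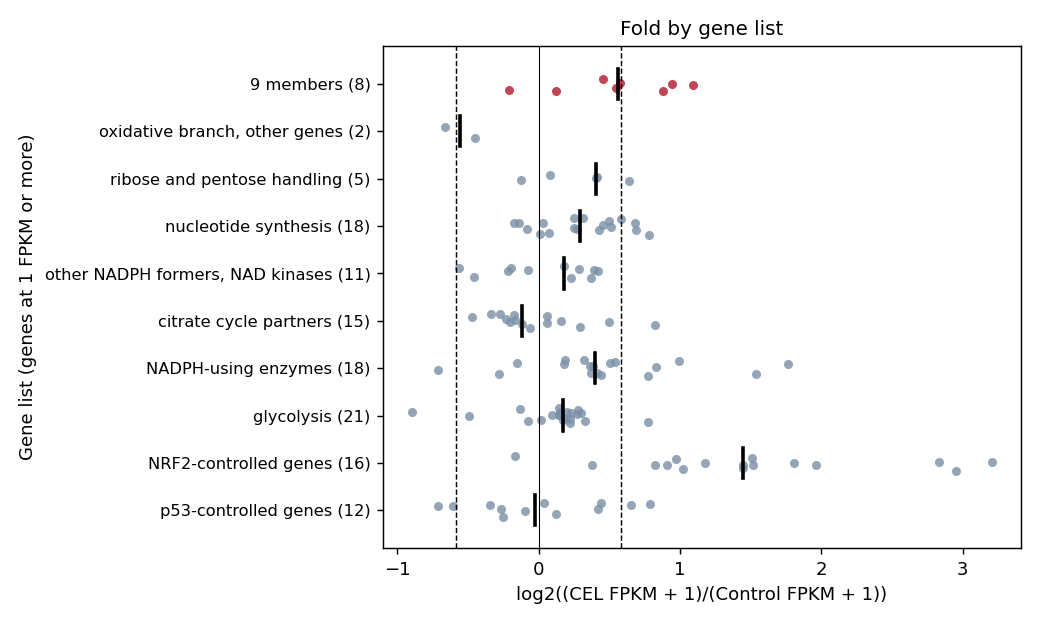
Log2 fold (CEL over Control, with 1 FPKM added to each) of each gene at 1 FPKM or more, by list, with the number of such genes in brackets; black bars are medians and dashed lines the 1.5-fold mark. The median of the 8 measured members, in red, is 0.56, between the NRF2-controlled genes at 1.45 and the other NADPH formers at 0.18. The members and lists were chosen with earlier results of these data known.

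Of 21 measured genes of glycolysis, from which the pathway branches, 1 was higher and 1 lower, against 8.97% and 10.2% of all measured genes. The median log2 fold of the 21 was 0.17. HK2, a hexokinase that supplies glucose 6-phosphate, stood at 42.9 FPKM in CEL and 24.6 FPKM in Control. FBP1, which runs the phosphofructokinase step backwards, stood at 5.73 FPKM in CEL and 11.5 FPKM in Control. PFKL, the liver form of phosphofructokinase, stood at 74.7 FPKM in CEL and 105 FPKM in Control, and the glucose transporter SLC2A1 at 570 FPKM in CEL and 453 FPKM in Control.

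The ratio of the libraries varied with gene length, and the lengths behind the FPKM bear on the members. The 8377 genes that reached 10 FPKM in either library were divided by length into 10 bins of nearly equal size, and the median log2 fold was 0.33 in the bin of shortest genes and -0.13 in the bin of longest genes. PGD and TALDO1 have a length of 791 bases behind their FPKM, close to the median of 776 bases in the bin of shortest genes, and ME1 has 3338 bases. With the trend removed, the log2 fold was 1.04 for ME1, 0.90 for TKT, 0.78 for TALDO1, 0.58 for RPIA, 0.36 for RPE and 0.24 for PGD, and PGLS turned from 0.12 to -0.08. The same 3 members stayed past the 1.5-fold mark, against 5.44% of all measured genes that were then higher and 13.7% that were lower. On this scale 748 genes were higher and 1887 lower, where the deposited scale gave 1233 higher and 1398 lower. ME1 then had the highest fold in place of TALDO1. These values rest on the lengths of the deposited table. With a trend refitted on the longest coding transcript of each gene in GENCODE 29, an alternative added after the data were seen, the log2 fold was 0.91 for ME1, 0.82 for TKT, 0.80 for TALDO1, 0.40 for RPE, 0.38 for RPIA, 0.36 for PGD and -0.26 for PGLS. The same 3 members were past the mark, and RPIA, RPE and PGD lay closer together than by the deposited lengths.

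**Figure D4:**
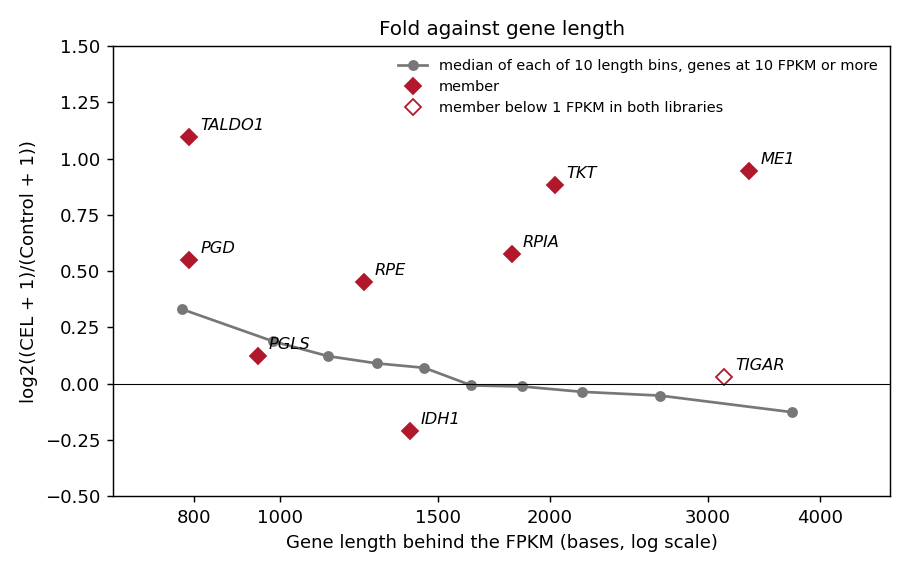
Log2 fold of each member (diamonds, TIGAR open) against the gene length behind its FPKM (bases, log axis), with the medians of 10 length bins of the genes at 10 FPKM or more (grey). TKT and ME1 lie above the grey line at lengths where it is below 0, and PGD and TALDO1 lie above it at its short end, where it is at 0.33.

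Between genes, the order of levels depended on the length used. By deposited FPKM the order in CEL was TALDO1, TKT, PGD, IDH1, RPE, ME1, PGLS, RPIA and TIGAR, and in Control it was TALDO1, PGD, TKT, IDH1, RPE, PGLS, ME1, RPIA and TIGAR. Counting intervals overlapped for ME1 and PGLS in CEL, and for PGD and TKT and for RPE and PGLS in Control. The length of 791 bases for PGD is shorter than its longest coding transcript in GENCODE 29, 1885 bases, and for TALDO1 that transcript has 1346 bases. Per kilobase of that transcript, TALDO1, TKT and PGD stood at 336, 300.2 and 153 FPKM in CEL and at 157, 162 and 104 FPKM in Control, so that TKT had the higher value in Control, where the counting intervals of TKT (159 to 166) and TALDO1 (152 to 163) overlapped. The ratios of FPKM between libraries do not depend on this choice, and the folds with the trend removed do.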

How the data were processed

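RNA of 1 CEL and 1 Control library of MDA-MB-231 cells was measured by RNA sequencing. The deposited table gives FPKM, computed by the authors per gene; HTSeq 0.5.4 and GRCh38 were used, per the submitters' processing notes. Aligner, annotation release, strand setting and the origin of the gene length were not given in the sources used here. The deposited coordinates and length are other measurements, per the file headers.

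FPKM times length gave whole reads (tolerance 1e-06) for 68.7% of the 24783 detected genes at the printed length and for the rest at 1 base more, and these summed to both library totals, 17199398 reads in CEL and 14821148 in Control. The 354 unnamed genes, with 0.265% of CEL and 0.298% of Control reads, were left out. Genes reaching 1 FPKM in either library were measured, and folds used a pseudocount of 1 FPKM, which understates low genes. No test was made with 1 library per group. The members and lists were chosen with earlier results of these data known, so no list is independent evidence. Named genes are the members, the measured genes of the other NADPH list and the 4 largest absolute folds of each other list; KANSL1L, near copies and markers were added for checks. Alternatives were 2 pseudocounts, 2 filters, 3 scalings and removal of a lowess trend with length, by the deposited lengths or by the longest coding transcript. Steps were tested on simulated data. Python 3.11.15, numpy 2.4.6, pandas 2.3.3, scipy 1.17.1, statsmodels 0.14.6 and matplotlib 3.10.9 were used.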

Additional observations from a re-analysis of the deposited data

How the results depend on the processing

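No paired analysis was possible because each group has 1 library, and for the same reason no library could be left out. TKT, TALDO1 and ME1 were past the 1.5-fold mark under the deposited scale and all 8 alternatives, with log2 folds of 0.83 to 0.90, 0.78 to 1.10 and 0.81 to 1.04. RPIA passed it with a pseudocount of 0.1 FPKM (0.61), which made 4 members higher; PGD, RPE, PGLS and IDH1 passed it under none, and PGLS changed sign without the length trend (-0.08). The median over members lay between 0.47 and 0.58. Over all genes, 604 of 13745 were higher and 490 lower with a pseudocount of 5 FPKM, which shrinks the folds of low genes. A filter at 5 FPKM left 10031 genes, of which 744 were lower. Without the length trend 748 of 13745 were higher, since its removal lowers the folds of short genes. The cause of the length trend was not tested. On the TPM scale 1359 of 14896 genes were higher and 2018 lower, where the deposited scale gave 1233 and 1398 of 13745. Of the values for single members and lists, 24 moved by more than their counting interval or by over 1.5 times and 258 did not. Depth limits TIGAR, with 46 reads in CEL and 38 in Control. The level order and the length trend by the longest coding transcript were added after the data were seen.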
